A study of Homo sapiens with 6 samples.

Results

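The 4 ERBB receptors and the genes of the HER2 amplicon on chromosome 17 were followed in SKBR3 cells in which NDRG1 was silenced. The 10 genes, chosen by name, are ERBB2, GRB7, STARD3, PGAP3, MIEN1, MED1, CDK12, EGFR, ERBB3 and ERBB4, and 9 of them were among the 14812 genes measured. No probe is paired with ERBB2 in the probe table used here, so ERBB2, which belongs to both the receptors and the amplicon, was not analysed here. GRB7 was lower in shNDRG1 cells in all 3 batches, by 0.44 on the log2 scale or 1.36-fold. Its neighbours PGAP3 and MIEN1 were higher in all 3 batches, by 0.18 and 0.17. Over all genes, 17.1% were higher and 12.6% were lower in all 3 batches. STARD3, MED1, CDK12, EGFR, ERBB3 and ERBB4 had no common direction over the batches. The measured amplicon genes therefore did not share a direction. None of the 9 genes passed the test after adjustment over all genes, and neither did any other gene in limma (0%), although 1399 of the 14812 had an unadjusted p under 0.05 and a variance model with a trend called 1 gene.

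The ERBB receptors are receptor tyrosine kinases that pair with each other when ligands of the epidermal growth factor and neuregulin families bind. EGFR binds epidermal growth factor and its relatives, ERBB3 and ERBB4 bind neuregulins, and ERBB2, also called HER2, has no known ligand of its own and is the preferred partner of the others. In part of breast cancers a stretch of chromosome 17 that holds ERBB2 is present in many copies, and the genes beside ERBB2 are gained with it. SKBR3 is an established breast cancer cell line with such a gain. NDRG1 is a stress- and hypoxia-induced cytoplasmic protein.

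The shNDRG1 group held 3 arrays of SKBR3 cells expressing an shRNA against NDRG1, and the shGFP control group held 3 arrays of SKBR3 cells expressing an shRNA against GFP. The labels name GFP as the control's target, while the text on the arrays speaks of a vector control. The titles of all 6 samples also carry DFO, the study's abbreviation for the iron chelator deferoxamine, written "minusDFO" in batches 2 and 3 and "-DFO" in batch 1, where the labels do not say whether the dash means without. All cells were grown in DMEM with serum, and the study's hairpins were delivered by lentivirus. A single NDRG1 hairpin was used on the arrays, so effects of that hairpin on other transcripts cannot be told apart from those of NDRG1. The methods call the 3 replicates of a group biologically independent. The labels number 3 batches that each hold 1 array of both groups, without saying what a batch is. The titles also carry what looks like a date, the same in batches 2 and 3 and another in batch 1. It is called the label day here. Values are log2 values relative to a baseline of each probe. The methods name the control median as that baseline, but within a tolerance of 1e-05 it was 0 for 0.338% of probes, while the median of all 6 arrays was 0 for 26.8%. A value of 0 is thus a baseline and not absence, and no gene's level can be set against another's. The identity of the cells could not be checked from marker levels for the same reason. Differences are shNDRG1 minus shGFP control, compared within batches with limma, a linear model that borrows variance across genes, with Benjamini-Hochberg adjustment over all genes measured. In these whole-culture samples, fewer cells of a kind and less RNA per cell cannot be told apart.

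NDRG1 itself was at -0.77, -0.74 and -1.09 in shNDRG1 cells of batches 1, 2 and 3, against 0.022, 0.42 and -0.022 in shGFP control cells. The groups did not overlap, and the difference was -1.01 (standard error 0.09), although its adjusted p was 0.289 from limma. The 2 arrays of batch 2 lay apart from the rest on a first principal component that held 72.0% of the variance.

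EGFR, the receptor of epidermal growth factor, was at 0.056, -0.079 and -0.25 in shNDRG1 cells of batches 1, 2 and 3, against 0.0062, -0.32 and -0.0062 in shGFP control cells. The groups overlapped, and the differences of 0.05, 0.24 and -0.24 pointed both ways. Their mean was 0.015 (95% interval -0.27 to 0.30, adjusted p = 0.993 from limma).

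ERBB3, the neuregulin receptor with little kinase activity of its own that couples to PI3 kinase, was at -0.11, 0.14 and -0.00040 in shNDRG1 cells, against -0.028, 0.27 and -0.033 in shGFP control cells. Batch 2 was the highest in both groups. The difference was -0.061 (95% interval -0.22 to 0.093, adjusted p = 0.858 from limma), and its sign in batch 3 was opposite to that in batches 1 and 2.

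ERBB4, the other neuregulin receptor, was at 0.35, -0.21 and -0.079 in shNDRG1 cells, against -0.063, -0.23 and 0.063 in shGFP control cells. The shNDRG1 array of batch 1 was the highest of the 6. The difference was 0.10 (95% interval -0.23 to 0.43, adjusted p = 0.908 from limma), the widest interval among the 9 genes. The intervals of the 3 receptors all included 0, which bounds their differences rather than showing that they are equal in both groups.

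**Figure D1:**
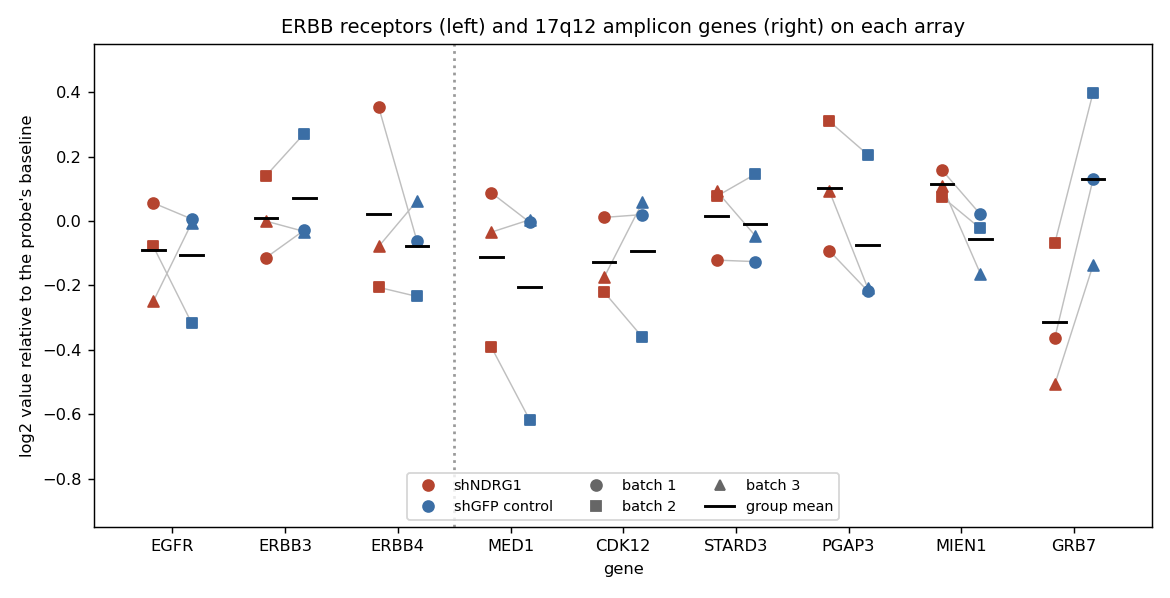
Log2 value of each measured gene relative to its probe's baseline (y axis) on each of the 6 arrays, with shNDRG1 at the left and shGFP control at the right of each gene, symbols for the batches, grey lines joining arrays of a batch and black bars for group means (n = 3 each). GRB7 lies lower in shNDRG1 cells in each batch, PGAP3 and MIEN1 lie higher, and MIEN1 is the gene whose groups do not overlap.

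Among the amplicon genes, GRB7, an SH2-domain adaptor that binds activated ERBB receptors, had the largest difference. It was at -0.36, -0.070 and -0.51 in shNDRG1 cells of batches 1, 2 and 3, against 0.13, 0.40 and -0.14 in shGFP control cells. The shNDRG1 array of batch 2 lay above the shGFP control array of batch 3, so the groups overlapped, while each shNDRG1 array lay below the control of its own batch. The within-batch differences were -0.49, -0.47 and -0.37, with a mean of -0.44 (standard error 0.05, 95% interval -0.59 to -0.30).

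Over all genes, 3.74% were lower at an unadjusted p under 0.05, and 12.6% were lower in all 3 batches. GRB7 had an unadjusted p of 0.000796 from limma, the 35th smallest of 14812 and the 24th among genes that were lower, and an adjusted p of 0.304. Without the batch in the model its standard error was 0.18 and its unadjusted p 0.0473 from limma, and with the label day in place of the batch that p was 0.0714. An exact two-sided permutation test of the 6 arrays that ignores the batches gave p = 0.2, where the smallest p that 3 arrays against 3 can give is 0.1.

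PGAP3, an enzyme that remodels the lipid part of GPI anchors, was at -0.093, 0.31 and 0.093 in shNDRG1 cells, against -0.22, 0.21 and -0.21 in shGFP control cells. Batch 2 was the highest in both groups, and the groups overlapped. The difference was 0.18 (standard error 0.06, 95% interval 0.0058 to 0.35, unadjusted p = 0.0453 and adjusted p = 0.516 from limma). Without the batch the unadjusted p was 0.313 from limma.

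MIEN1, a small membrane-anchored protein linked to cell migration, was at 0.16, 0.075 and 0.11 in shNDRG1 cells, against 0.021, -0.023 and -0.16 in shGFP control cells. All 3 shNDRG1 arrays lay above all 3 shGFP control arrays. The difference was 0.17 (standard error 0.06, 95% interval 0.010 to 0.33, unadjusted p = 0.0413 and adjusted p = 0.494 from limma). The exact two-sided permutation p was 0.1, the smallest these groups can give. Among all genes, 5.7% were higher at an unadjusted p under 0.05, 5.14% were higher with groups that did not overlap, 3.21% were lower with groups that did not overlap, and 17.1% were higher in all 3 batches. Of the 9 measured genes, 2 were higher and 1 was lower at that unadjusted threshold, and MIEN1 was the only one whose groups did not overlap.

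The differences of PGAP3 and MIEN1 were close to each other within each batch. PGAP3 minus MIEN1 was -0.013, 0.0050 and 0.028 in batches 1, 2 and 3. The gap from MIEN1 to GRB7 was 0.63, 0.57 and 0.64 in the same batches (0.61 ± 0.04, SD, n = 3), a similar amount in each. The 3 genes shared their batches and arrays, and the pairs were singled out after their values were seen. Such steadiness was not particular to neighbours. For ERBB3, which is not an amplicon gene, ERBB3 minus MIEN1 was -0.22, -0.23 and -0.24. Its SD was 0.0088, against 0.021 for PGAP3 minus MIEN1.

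PGAP3 and ERBB2 lie head to head on opposite strands in RefSeq (GRCh38.p14), with 36 bases between their starts, and ERBB2 and MIEN1 overlap at their ends by 149 bases on opposite strands. The bases at the starts of the 2 genes that were higher, PGAP3 and MIEN1, are shown with those before STARD3. The STARD3 and MIEN1 stretches were chosen after the matches below were seen. Capitals mark CCGGAAG, a core bound by ETS factors, on either strand, and in STARD3 also GCCNNNGGC, the site of the AP-2 factors.
between PGAP3 and ERBB2, chr17:39688058-39688093, plus strand: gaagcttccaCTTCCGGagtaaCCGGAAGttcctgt
MIEN1 start, chr17:39730519-39730552, minus strand: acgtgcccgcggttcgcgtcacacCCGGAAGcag
STARD3 upstream, chr17:39637064-39637143, plus strand: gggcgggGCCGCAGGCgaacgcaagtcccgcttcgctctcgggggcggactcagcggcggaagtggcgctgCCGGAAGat
The MIEN1 stretch holds 20 bases before and 14 after the start, and the STARD3 stretch lies in an uncharacterised long noncoding RNA gene of the same table.

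Of the 10 genes, 8 had a window of 250 bases before to 50 after a start. GRB7 and ERBB3 had no window, so their bases were not searched. CCGGAAG was found on either strand in the windows of 4, namely ERBB2, PGAP3, STARD3 and MIEN1. The windows of ERBB2 and PGAP3 share 136 bases and the same pair of matches. The letters occur in 10.3% of 35116 windows of that length. AP-2 letters were in the windows of EGFR and STARD3 and in 23.2% of all windows. A forkhead core, TGTTTAC, was in the window of PGAP3 and in 3.42% of all windows. CCAAT was found for ERBB2 and MED1 and in 34.6% of all windows, and TATAAA for EGFR and in 11.5%. STARD3, with the same ETS letters as PGAP3 and MIEN1, had no common direction over the batches, and a match is a description of letters and not of binding.

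STARD3, which moves cholesterol at late endosomes, was at -0.12, 0.077 and 0.093 in shNDRG1 cells, against -0.13, 0.15 and -0.045 in shGFP control cells. The groups overlapped. The difference was 0.025 (95% interval -0.14 to 0.19, adjusted p = 0.976 from limma), with 2 batches above 0.

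MED1, the Mediator subunit that contacts nuclear receptors, was at 0.088, -0.39 and -0.035 in shNDRG1 cells, against -0.0039, -0.62 and 0.0039 in shGFP control cells. Both arrays of batch 2 were the lowest. The difference between the groups was 0.093 (95% interval -0.095 to 0.28, adjusted p = 0.793 from limma).

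CDK12, a kinase of elongating RNA polymerase, was at 0.011, -0.22 and -0.18 in shNDRG1 cells, against 0.020, -0.36 and 0.058 in shGFP control cells. Batch 2 was again the lowest in both groups. The difference was -0.034 (95% interval -0.27 to 0.20, adjusted p = 0.978 from limma), and the batches gave -0.0088, 0.14 and -0.23.

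Batches differed in different directions for different amplicon genes. The mean of the batch 2 arrays minus that of the others was -0.52 for MED1 and -0.27 for CDK12, against 0.38 for GRB7, 0.36 for PGAP3, 0.16 for STARD3 and -0.0051 for MIEN1. MED1 and CDK12, which are adjacent, correlated over the 6 arrays with a Pearson's r of 0.90. The same measure was 0.85 for STARD3 and PGAP3, 0.32 for PGAP3 and MIEN1, -0.46 for MIEN1 and GRB7, -0.92 for CDK12 and STARD3 and -0.90 for CDK12 and PGAP3. ERBB3 and EGFR, which are not amplicon genes, reached similar sizes, with -0.99 for ERBB3 and MED1 and 0.87 for EGFR and CDK12. All these correlations share the batch 2 arrays. ERBB3 had a batch 2 mean of 0.25 above the others, while EGFR was at -0.15 and ERBB4 at -0.29.

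**Figure D2:**
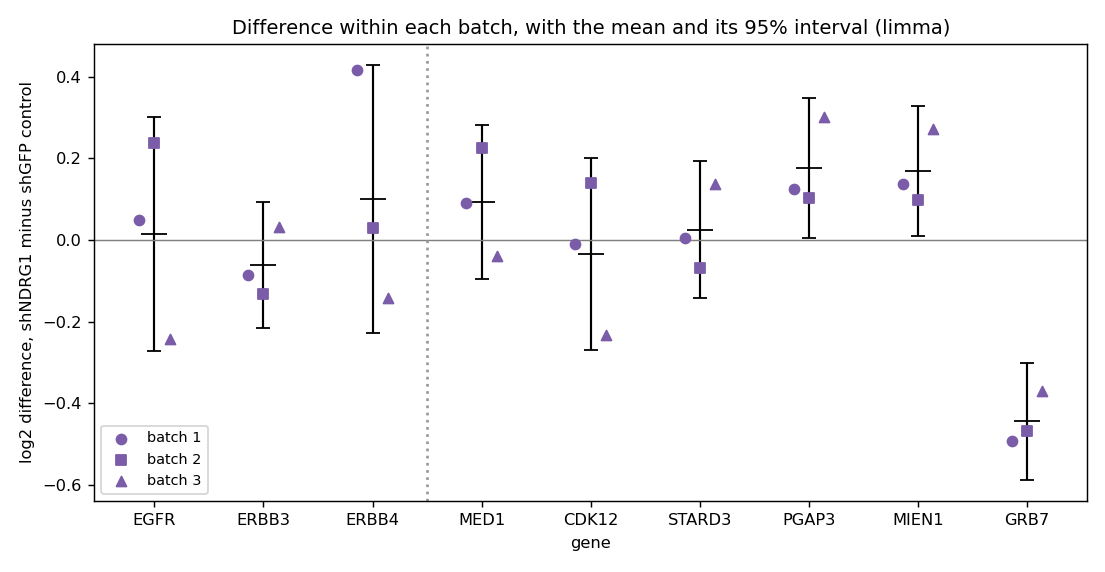
Log2 difference, shNDRG1 minus shGFP control (y axis), of each measured gene in each of the 3 batches, with the mean as a horizontal bar and its 95% interval from limma. The interval of GRB7 runs from -0.59 to -0.30, those of PGAP3 and MIEN1 lie just above 0, and the other 6 include 0.

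The 6 measured amplicon genes had a median difference of 0.059, with 4 above and 2 below 0, and the medians of batches 1, 2 and 3 were 0.048, 0.10 and 0.050. Left unpaired, it was -0.0056 without the shGFP control array of batch 2 and 0.022 without the shNDRG1 array of batch 3, and it was 0.090 with the block and without batch 3. Over all 14812 genes the median was 0.0070, with 7943 above and 6869 below. The 3 receptors had a median of 0.015, and the 9 genes together one of 0.025, with 6 above and 3 below 0. These medians hide a spread from -0.44 for GRB7 to 0.18 for PGAP3.

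The neighbourhood was described with 43 other genes that lie among and beside the amplicon genes, of which 28 were measured. Their median difference was -0.010, with 12 above and 16 below 0, and 3 had an unadjusted p under 0.05 with a higher value and 2 with a lower one. Without the batch in the model these counts were 1 and 0. The shares over all 14812 genes at that threshold were 5.7% higher and 3.74% lower with the batch in the model. The nearest measured neighbour before MED1 is FBXL20, an F-box protein, which had differences of 0.22, 0.33 and 0.25 in the 3 batches (mean 0.27, standard error 0.05, unadjusted p = 0.00519 and adjusted p = 0.336 from limma). FBXL20 lay at 0.15, 0.0023 and 0.12 in shNDRG1 cells, against -0.074, -0.33 and -0.13 in shGFP control cells, with no overlap. The nearest measured neighbour after GRB7 is IKZF3, a lymphoid zinc finger factor, with 0.037, -0.012 and -0.035 (mean -0.0035).

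Further out, LASP1, an actin-binding protein, had a difference of 0.26 (standard error 0.06), and TNS4, a focal adhesion protein, one of -0.48 (standard error 0.13). Both were named by a rule that takes only genes with the same sign in all 3 batches. Their adjusted p were 0.385 and 0.420 from limma. Unadjusted p from limma were 0.0109 and 0.0171 with the batch but 0.204 and 0.178 without it. In chromosome order, 16 of 34 measured genes of the interval lay above 0 and 18 below. GRB7 stood between MIEN1 at 0.17 and IKZF3 near 0. TNS4 was the one measured gene of the interval with a lower mean difference than GRB7.

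**Figure D3:**
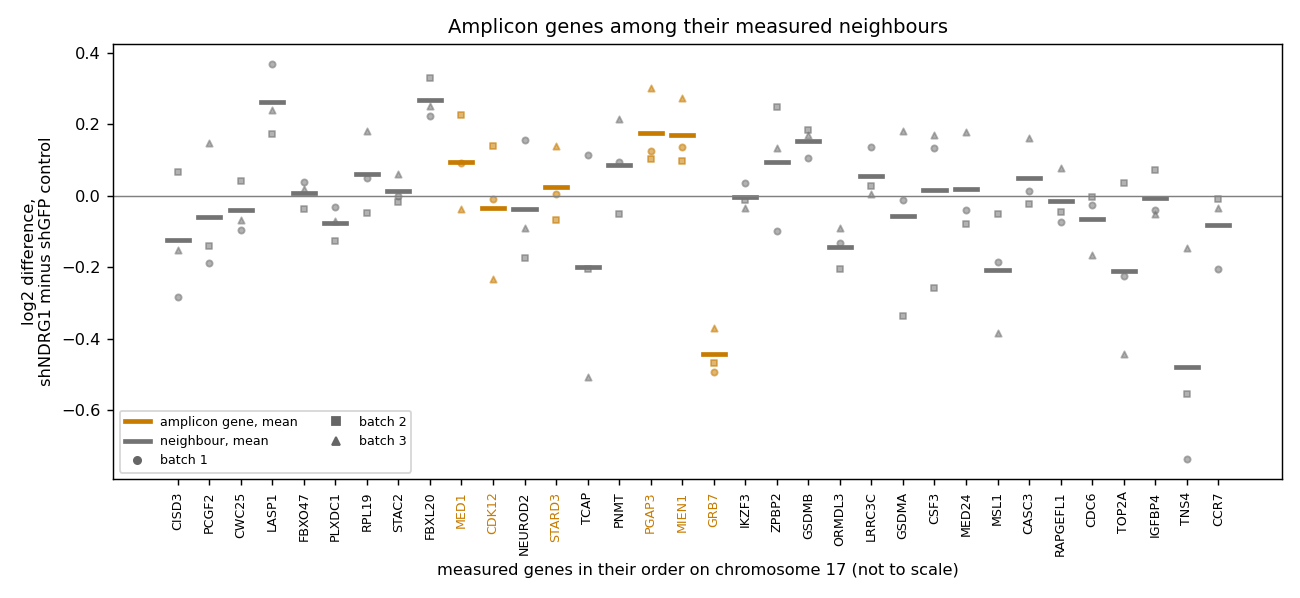
Log2 difference, shNDRG1 minus shGFP control (y axis), of the 34 measured genes of the interval in their order on chromosome 17 (x axis, not to scale), with the mean as a bar and each batch as a point. Amplicon genes are orange and neighbours grey. GRB7 at -0.44 lies beside MIEN1 at 0.17 and IKZF3 near 0.

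The pattern of GRB7 over the 6 arrays was most like those of CREB3L4 (r = 0.986), EFNA3 (r = 0.986) and IGFL1 (r = 0.985). CREB3L4 is a transcription factor of the endoplasmic reticulum membrane, EFNA3 an ephrin and IGFL1 a secreted protein. Their differences were -0.31, -0.54 and -0.92. In all, 48 genes had an r over 0.95 with GRB7, and the arrays share batch and hairpin.

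Over all genes, 845 lay above 0 and 554 below with an unadjusted p under 0.05, and 399 and 232 did so without the batch in the model. Of 11 listed ligands of the ERBB receptors, 9 were measured, with a median difference of 0.0035, 5 above and 4 below 0, and none at an unadjusted p under 0.05. NRG4 and NRG1, neuregulins that bind ERBB4 and, for NRG1, ERBB3, both had a difference of 0.07. They had the same sign in all 3 batches, which the naming rule required. Their adjusted p were 0.773 and 0.796 from limma.

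Of 43 listed adaptors and effectors, 26 were measured, with a median of 0.0084. With an unadjusted p under 0.05, 4 lay above 0 and 1 below, and without the batch 3 and 0. MYC, a growth-promoting transcription factor, was at 0.014, 0.57 and 0.51 in shNDRG1 cells, against -0.27, -0.014 and -0.042 in shGFP control cells. The difference was 0.47 (standard error 0.08, adjusted p = 0.318 from limma). MTOR, the growth-controlling kinase downstream of PI3 kinase, was at 0.16, 0.35 and 0.21 in shNDRG1 cells, against -0.12, 0.12 and -0.18 in shGFP control cells, a difference of 0.30 (standard error 0.06). In both genes each shNDRG1 array lay above the control of its batch, and the naming rule required such a shared sign. GAB1, a docking protein of receptor tyrosine kinases, had a difference of -0.35 (standard error 0.10), and by the same rule each batch was below 0. Its unadjusted p was 0.0219 with the batch and 0.173 without it in limma. Chosen after their values were seen, GRB2 and MAP2K1, an adaptor and a kinase of the RAS pathway, had differences of 0.32 and 0.24, and the unadjusted p of GRB2 was 0.0405 with the batch and 0.0593 without it in limma. GRB2, unlike GRB7, was thus higher in all 3 batches, by 0.028, 0.43 and 0.49.

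Of 26 listed negative regulators, 13 were measured, with a median of -0.0055, and 1 was above and 1 below 0 at that threshold, against 0 and 0 without the batch. SOCS5, which promotes the loss of EGFR, had a difference of -0.26 (standard error 0.07, unadjusted p = 0.0202 with the batch and 0.427 without it in limma). ERRFI1, an inhibitor of ERBB kinases, had one of 0.26 (standard error 0.09, unadjusted p = 0.0416 with the batch and 0.0861 without it in limma), and DUSP4, a MAP kinase phosphatase, one of 0.18 (standard error 0.07). Of 24 listed chaperones and trafficking genes, 12 were measured, with a median of 0.10, and 2 were above and 2 below 0 at that threshold, against 2 and 0 without the batch. CD44, a hyaluronan receptor that associates with ERBB2, was at 0.15, 0.61 and 0.59 in shNDRG1 cells, against -0.33, 0.063 and -0.18 in shGFP control cells, a difference of 0.60 (standard error 0.07, adjusted p = 0.304 from limma). TSG101, an ESCRT subunit, had a difference of 0.22, and EPS15, an endocytic adaptor, one of -0.16 (unadjusted p = 0.0454 with the batch and 0.289 without it in limma).

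Of 22 listed factors that bind or regulate ERBB2, 18 were measured, with a median of -0.024, and 5 were below 0 and none above at that threshold, against 3 and none without the batch. FOXA1, the pioneer factor of luminal cells, was at -0.13, -0.081 and -0.011 in shNDRG1 cells, against 0.58, 0.45 and 0.41 in shGFP control cells. The groups did not overlap, and the difference was -0.56 (standard error 0.08, adjusted p = 0.304 from limma). SPDEF, an ETS factor of luminal epithelium, was at -0.31, -0.050 and -0.20 in shNDRG1 cells, against 0.29, 0.69 and 0.095 in shGFP control cells, a difference of -0.54 (standard error 0.10). XBP1, a factor of the secretory pathway, had a difference of -0.39 (standard error 0.08). Its values were 0.048, -0.29 and -0.048 in shNDRG1 cells, against 0.33, 0.29 and 0.26 in shGFP control cells, again without overlap.

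**Figure D4:**
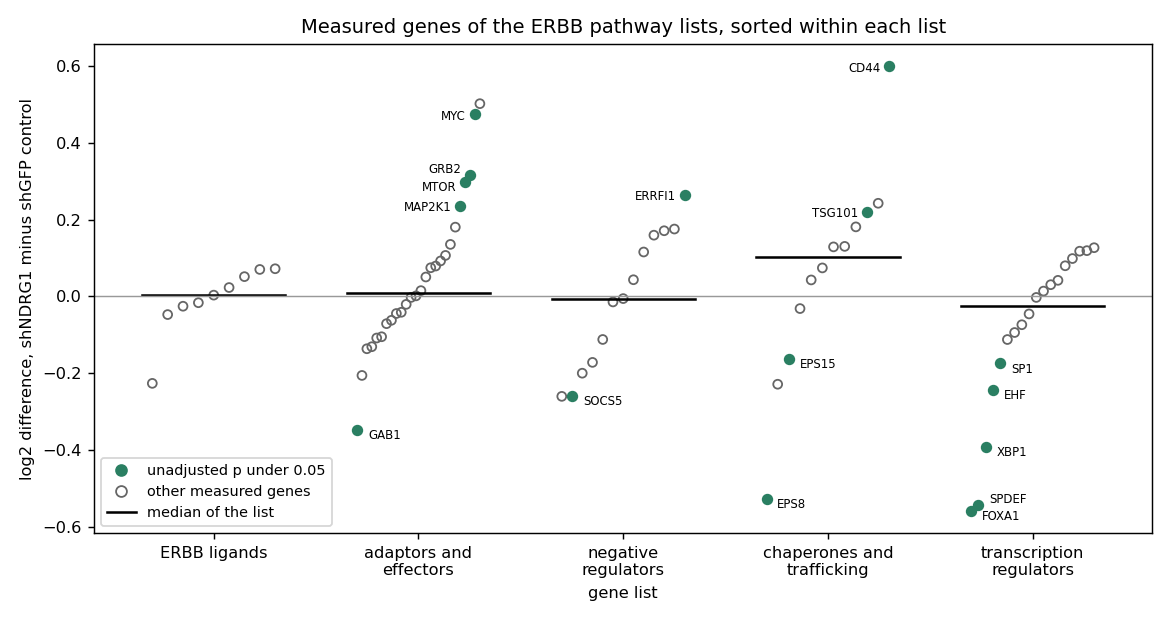
Log2 difference, shNDRG1 minus shGFP control (y axis), of the measured genes of 5 ERBB pathway lists (x axis), sorted within each list, with filled points for an unadjusted p under 0.05 from limma and a bar for the median. The filled points of the transcription regulators all lie below 0, with FOXA1 at -0.56, and those of the adaptors and effectors lie above 0 except GAB1 at -0.35.

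Of 13 listed luminal epithelial markers, 11 were measured, and 9 were below and 2 above 0, with a median of -0.23. At that threshold 3 were below 0 (4 without the batch), namely FOXA1, SPDEF and the tight junction gene CLDN4, which had a difference of -0.31 (standard error 0.10). The list shares FOXA1, SPDEF and GATA3 with the transcription regulators, and GATA3 had a difference of -0.094 whose sign varied between batches. Of 9 basal markers 3 were measured, EGFR among them, and their median of 0.015 is the difference of EGFR itself. Of 15 stromal and immune markers 6 were measured, with a median of 0.019. FN1, fibronectin, had a difference of -0.65 (unadjusted p = 0.0036 with the batch and 0.115 without it in limma), and CD68, a lysosomal protein of macrophages, one of 0.51 (unadjusted p = 0.00694 and 0.0858). The summed level of these lists cannot be given on baseline-relative values. The mean value of the luminal list lay between -0.21 and 0.067 in shNDRG1 cells, against 0.12 to 0.30 in shGFP control cells, and its part in the difference of GRB7 was not tested.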

How the data were processed

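RNA was measured on 6 Affymetrix Gene 2.0 ST arrays. The authors checked them with Affymetrix Expression Console, summarised probes with PLIER, normalised by quantiles in GeneSpring and transformed each probe to a baseline. What they deposited is taken here to be log2 values, although no base is stated. Of 44629 probes, 15835 had 1 symbol, 0 had several and 28794 are unnamed here, and probes of a gene were averaged to 14812 genes. The genes and lists were chosen with earlier results of these data known.

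Genes were fitted with limma 3.58.1 in R 4.3.3 (lmFit, eBayes), with the batch as a block and Benjamini-Hochberg adjustment over all genes at 0.05. The batch number comes from the labels. Deviations of same-batch arrays from their group means correlated over genes at r = 0.785, 0.833 and 0.163 in batches 1, 2 and 3. Both batch 2 arrays lay apart, and deviations from a group mean sum to 0. These r therefore do not by themselves show that each batch pairs its arrays. Values without the block are given beside the genes whose unadjusted p it moves across 0.05. The model was tested on simulated arrays, whose noise was first drawn from the raw variances. Because fewer changes were recovered than required, the noise was then drawn from the moderated ones. That choice favours the model, so the simulation says little of the power in these data. NDRG1 itself was not called.

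The genes named in a list are those with the smallest p among genes with 1 sign in all 3 batches, up to 3, with the nearest neighbours and the genes most like GRB7. The table held 0 columns of per-sample values not used. Sequences are from RefSeq (GRCh38.p14). The build of the array is not given here, so only gene order was taken from the gene table. Plots were made in Python 3.11.15 with matplotlib 3.10.9. Alternatives were no block, the label day as a block, other normalisations, variance models, weights, probe handling, thresholds and left-out arrays. The number of arrays limits the precision.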

Additional observations from a re-analysis of the deposited data

How the results depend on the processing

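GRB7 stayed lower, and MIEN1 and PGAP3 higher, under all 18 alternatives run for each. Their differences were -0.58 to -0.31, 0.12 to 0.21 and 0.073 to 0.32. A change of block alone could not move these differences, since each batch and each label day held both groups in equal number. A variance model sets only the standard error, and probe handling could not move the differences since each gene had 1 probe. Nor could leaving out a batch reverse a sign shared by all 3 batches. No gene of the 9 passed an adjusted p of 0.05 under any of the 18 alternatives. At a p of 0.05 without adjustment, 3 of the 9 genes and 1399 of all 14812 genes passed. In the pathway lists, which hold 9, 26, 13, 12 and 18 measured genes, 16 genes passed that threshold. A trended and robust variance model called 1 gene of all at an adjusted p of 0.05. For GRB7, MIEN1 and PGAP3 the unadjusted p from limma was under 0.05 in 13, 8 and 6 of the 18 alternatives. Without the replicate block, that is with the pairing by batch left out, GRB7 kept a difference of -0.44 with an unadjusted p of 0.0473 from limma, and 0.0714 with the label day as the block. Quantile normalisation again gave EGFR -0.062. The other 6 genes changed sign when a whole batch was left out, or a single array together with the block, and ERBB3 and MED1 did so in the second case alone. Their ranges over both were -0.097 to 0.14 for EGFR, -0.13 to 0.039 for ERBB3, -0.064 to 0.22 for ERBB4, -0.11 to 0.23 for MED1, -0.17 to 0.066 for CDK12 and -0.034 to 0.10 for STARD3. The same ranges were -0.0056 to 0.090 for the amplicon median (0.049 to 0.090 with whole batches left out), -0.059 to 0.14 for the receptor median and -0.068 to 0.038 for that of the 28 measured neighbours. The cause was not tested.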
